A study of Homo sapiens with 4 samples.

Results

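Of the IFT70, TSPYL and ZXD families, 9 genes were followed in HEK293T cells, wild type or with a MORC2 knock-out, out of 28775 genes counted. They include 3 pairs of neighbouring paralogs (6 genes), IFT70A with IFT70B, TSPYL1 with TSPYL4 and ZXDA with ZXDB, in which each copy consists of 1 exon. The pairs were chosen by their measured counts, which were higher in the MORC2 KO samples than in WT. The differences between MORC2 KO and WT given for them are therefore a description and carry no test. The other 3 genes, TSPYL2, TSPYL5 and ZXDC, are relatives that lie elsewhere in the genome and were taken for comparison. Of the 9 genes, 8 passed the filter on low counts and TSPYL5 had no counts.

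MORC2 is a chromatin-remodelling ATPase linked to transcriptional silencing, and RNA-seq was used to ask which transcripts change after its knock-out. HEK293T is an established cell line from human embryonic kidney that carries the SV40 large T antigen. The 4 samples were 2 cultures with a MORC2 knock-out, made with sgRNA 1 (MORC2 KO replicate 1) and sgRNA 2 (MORC2 KO replicate 2), and 2 wild-type cultures (WT replicates 1 and 2) with no guide. Each KO line was a bulk population grown after Cas9 electroporation, not a clone, so it may hold cells with different edits, and the 2 KO samples differ in guide as well as in culture. No treatment was recorded for any sample. Polyadenylated RNA was read as 65-base pairs, and the counts on genes summed to between 53970043 and 64312514 per sample.

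MORC2 itself had 3064 and 3637 counts in KO replicates 1 and 2, and 5131 and 4669 counts in WT replicates 1 and 2. In CPM, the count relative to the library's TMM-scaled total, these were 53.1 ± 2.69 in KO and 87 ± 1.06 in WT (SD, n = 2). MORC2 RNA was thus lower but still present in the KO samples, with a log2 fold change of -0.71 (SE 0.06, edgeR adjusted p = 1.37e-04). The HEK293T genes VIM, KRT8, KRT18, PAX2, LHX1 and NEFM were all detected, and PTPRC, CD3E and HBB, markers of blood cells, had at most 1 count in any sample. PECAM1 of endothelium had 2 to 5 counts, ALB of liver 6 to 14, and COL1A1 of fibroblasts 194 to 238, and none of the 8 marker genes with enough counts to be tested differed between KO and WT at an adjusted p under 0.05.

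The families have unrelated functions. IFT70 proteins, once called TTC30, are subunits of the intraflagellar transport B complex, which carries tubulin and other cargo along the axoneme while a cilium is built. TSPYL proteins are autosomal or X-linked relatives of the testis-specific Y-encoded protein and carry a domain of the nucleosome assembly protein family, which includes histone chaperones. ZXD proteins are zinc finger proteins of which ZXDA and ZXDC are known to bind each other and to act with CIITA, the master regulator of MHC class II transcription. Genes without introns within such families often arose by retroposition, the insertion of a copied messenger RNA, or by duplication of such a copy.

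On the assembly used for counting, T2T-CHM13v2.0, IFT70A (Entrez 92104) occupies chr2:178095311-178101054 and IFT70B (Entrez 150737) chr2:178031273-178035071, both on the minus strand with 60.2 kb between them. TSPYL1 (Entrez 7259) lies at chr6:117458843-117463912 and TSPYL4 (Entrez 23270) at chr6:117433945-117438056, both on the minus strand, 20.8 kb apart. TSPYL1 lies within an intron of DSE, a gene of the opposite strand, and shares no exonic base with it in the annotation used. ZXDA (Entrez 7789) lies at chrX:57205099-57210129 on the minus strand and ZXDB (Entrez 158586) at chrX:56890820-56896286 on the plus strand, with 309 kb between them. None of the 6 genes shares an exonic base with another annotated gene. TSPYL2 (Entrez 64061) has 7 exons at chrX:52368603-52374776, and ZXDC (Entrez 79364) has 9 exons at chr3:129170156-129208446.

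The sequences before the annotated transcription starts are shown because they differ in how far the members of each pair resemble each other. They are the 250 bases upstream of the start in RefSeq on GRCh38.p14, written 5′ to 3′ on the gene's own strand, and the capitals mark runs of at least 8 bases that are identical in the alignment of the 2 members. The windows are chr2:177618743-177618992 for IFT70A, chr2:177552797-177553046 for IFT70B, chr6:116279931-116280180 for TSPYL1, chr6:116254076-116254325 for TSPYL4, chrX:57910459-57910708 for ZXDA and chrX:57591761-57592010 for ZXDB. All are on the minus strand except that of ZXDB.
IFT70A: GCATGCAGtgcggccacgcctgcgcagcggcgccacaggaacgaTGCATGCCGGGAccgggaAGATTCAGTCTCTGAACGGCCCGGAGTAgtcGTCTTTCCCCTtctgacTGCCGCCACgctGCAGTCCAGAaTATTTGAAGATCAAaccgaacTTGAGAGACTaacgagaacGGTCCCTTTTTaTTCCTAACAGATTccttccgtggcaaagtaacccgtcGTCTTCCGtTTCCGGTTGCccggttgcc
IFT70B: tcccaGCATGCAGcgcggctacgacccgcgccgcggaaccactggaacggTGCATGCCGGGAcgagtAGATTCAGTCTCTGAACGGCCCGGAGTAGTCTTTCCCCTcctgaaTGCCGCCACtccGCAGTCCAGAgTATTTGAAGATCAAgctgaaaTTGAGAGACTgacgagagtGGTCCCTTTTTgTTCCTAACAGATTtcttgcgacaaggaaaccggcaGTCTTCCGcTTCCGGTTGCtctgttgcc
TSPYL1: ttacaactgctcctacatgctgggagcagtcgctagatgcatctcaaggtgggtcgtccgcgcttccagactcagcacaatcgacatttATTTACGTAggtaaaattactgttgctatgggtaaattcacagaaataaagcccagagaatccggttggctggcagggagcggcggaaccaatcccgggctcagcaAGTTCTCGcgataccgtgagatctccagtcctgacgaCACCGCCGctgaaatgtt
TSPYL4: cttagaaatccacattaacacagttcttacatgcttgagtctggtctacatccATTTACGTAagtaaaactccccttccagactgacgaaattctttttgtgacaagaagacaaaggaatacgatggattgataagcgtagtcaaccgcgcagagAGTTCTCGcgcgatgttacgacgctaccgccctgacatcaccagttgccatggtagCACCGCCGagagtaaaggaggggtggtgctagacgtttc
ZXDA: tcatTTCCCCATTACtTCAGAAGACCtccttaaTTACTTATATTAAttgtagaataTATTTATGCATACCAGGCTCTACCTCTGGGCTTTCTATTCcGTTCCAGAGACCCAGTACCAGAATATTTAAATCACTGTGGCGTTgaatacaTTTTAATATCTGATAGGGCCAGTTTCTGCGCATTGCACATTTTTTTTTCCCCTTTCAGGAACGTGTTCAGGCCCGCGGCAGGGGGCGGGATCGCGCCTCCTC
ZXDB: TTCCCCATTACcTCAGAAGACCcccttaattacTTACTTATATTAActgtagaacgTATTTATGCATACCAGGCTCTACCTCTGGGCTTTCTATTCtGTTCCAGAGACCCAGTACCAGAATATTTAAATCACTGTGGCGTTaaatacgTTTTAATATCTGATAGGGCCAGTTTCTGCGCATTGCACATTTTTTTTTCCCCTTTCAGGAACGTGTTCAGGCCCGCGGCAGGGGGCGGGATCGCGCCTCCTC

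The upstream sequences of ZXDA and ZXDB were nearly the same, with 238 of 246 aligned bases identical (96.7%) and an unbroken run of 102 bases. Those of IFT70A and IFT70B had 211 of 244 aligned bases in common (86.5%), with a longest run of 28. TSPYL1 and TSPYL4 had 131 of 201 in common (65.2%), and no identical run was longer than 9 bases. The 3 pairs therefore span a wide range of promoter likeness.

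A set of 8 motifs was searched on both strands in these windows with the 50 bases after the start added, and in all 27305 RefSeq promoter windows of that length. The list of motifs was made after the sequences had been read, and a match is a description of letters only. The X-box, GTTGCC and GTAAC with 3 bases of any kind between them, a motif of RFX factors known from ciliary genes, occurred in both IFT70 windows, as GTTGCCGTGGTAAC in IFT70A, just past the start, and as GTTGCCATAGTAAC in IFT70B, across the start. It occurred in 32 of all windows (0.117%) and in no other member searched. TSPYL5 was not among the 8 searched. The palindrome TCTCGCGA, bound by BANP, occurred in TSPYL1 only among the members searched and in 1.19% of all windows. CCGGAAG, an ETS site, occurred only in IFT70B among the members searched and in 10.7% of windows. The GC box GGGCGG, present in 44.6% of windows, occurred once in each of TSPYL1, TSPYL4, TSPYL2, ZXDA and ZXDB and 5 times in ZXDC, and in neither IFT70 window. CCAAT, found in 35.7% of windows, occurred once in TSPYL1 and 4 times in TSPYL2. TATAAA (12% of windows), the palindromic NRF1 site (1.36%) and the cAMP response element TGACGTCA (1.98%) occurred in none of the members searched. No motif searched occurred in all 6 pair genes.

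The coding sequences gave the same order of likeness. IFT70A and IFT70B were identical at 1918 of 1998 coding bases (96%), and ZXDA and ZXDB at 2344 of 2400 (97.7%). TSPYL1 and TSPYL4 were identical at 903 of 1218 aligned coding bases (74.1%). After translation, 95.3% of residues were identical between the IFT70 proteins, 96.6% between ZXDA and ZXDB, and 59% between TSPYL1 and TSPYL4. The relatives elsewhere were further apart, with 43.1% of residues identical between TSPYL1 and TSPYL2 and 66.4% between ZXDA and ZXDC.

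Likeness of this degree bears on the counts, because a read that fits both copies could be counted at either. Of the 65-base words of the IFT70A transcript, the length of a read, 488 of 5911 (8.26%) also occurred in IFT70B, and these made up 12.3% of the words of IFT70B. For ZXDA the share was 1139 of 4049 (28.1%) and for ZXDB 19.5%. No 65-base word was shared by TSPYL1 and TSPYL4, so their counts were separate at this read length. No member of a pair shared a word with TSPYL2, TSPYL5 or ZXDC. In GENCODE 29, transcripts of DSE cover the place of TSPYL1 and held 526 of its 3262 words, those of AC073834.1 cover IFT70A and held 380 of its 5911 words, and those of AGPS cover IFT70B and held 159 of its 3953 words, whereas the annotation used for counting has no such overlap. Reads were counted without regard to strand, and read pairs falling on several genes were left out. The part of shared reads in the values of single IFT70 and ZXD genes was not tested beyond the sums of each pair given below.

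The IFT70 pair was expressed at a low level. IFT70A had 711 and 916 counts in KO replicates 1 and 2 against 471 and 448 in WT replicates 1 and 2, or 11.9 and 13.9 CPM against 7.92 and 8.42 CPM. Both KO samples lay above both WT samples, the lower KO value being 1.41 times the higher WT value. The fitted log2 fold change was 0.66 (SE 0.10), or 1.58-fold. In RNA from whole cultures, more cells that express a gene and more RNA per cell cannot be told apart.

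IFT70B had 433 and 492 counts in KO against 285 and 220 in WT, or 7.24 and 7.45 CPM against 4.79 and 4.13 CPM. The groups again did not overlap, and here the WT replicates were further apart than the KO replicates. The log2 fold change was 0.72 (SE 0.12), or 1.64-fold. The log2 fold changes of IFT70A and IFT70B were thus closer to each other than the SE of either.

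A sum over the pair removes the effect of reads moved from one copy to the other, but not of reads counted at both or at neither. Summed in this way, IFT70 had 1144 and 1408 counts in KO and 756 and 668 in WT. The sum was 20.2 ± 1.54 CPM in KO and 12.6 ± 0.109 CPM in WT (SD, n = 2), a log2 fold change of 0.68 (SE 0.08). IFT70A took 62.2% and 65.1% of the pair's counts in KO replicates 1 and 2, and 62.3% and 67.1% in WT replicates 1 and 2. The division between the copies overlapped between KO and WT.

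TSPYL1, a widely expressed histone-chaperone relative whose loss in humans causes sudden infant death with dysgenesis of the testes, was the most abundant pair member. It had 8402 and 9526 counts in KO against 6225 and 5704 in WT, or 141 and 144 CPM against 105 and 107 CPM. Replicates differed by far less than the groups, with log2 differences of 0.04 within KO and 0.03 within WT. The log2 fold change was 0.43 (SE 0.06), or 1.34-fold.

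TSPYL4 had 2470 and 2860 counts in KO against 1772 and 1664 in WT, or 41.3 and 43.3 CPM against 29.8 and 31.3 CPM. KO and WT did not overlap, and the fit gave a log2 fold change of 0.47 (SE 0.06), or 1.39-fold. TSPYL1 took 77.3% and 76.9% of the pair's counts in KO and 77.8% and 77.4% in WT, with Wilson intervals that overlapped between KO and WT. The division between these copies, which share no 65-base word, thus stayed within a narrow range over the 4 samples. Their sum was 185 ± 3.98 CPM in KO and 136 ± 2.86 CPM in WT, a log2 fold change of 0.44 (SE 0.06).

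The relatives of TSPYL1 and TSPYL4 are one that was well expressed and one that was not detected. TSPYL2, an X-linked family member that binds the kinase CASK, had 3854 and 4479 counts in KO against 3661 and 3123 in WT, or 64.5 and 67.8 CPM against 61.5 and 58.7 CPM. Both KO values were above both WT values, by as little as 1.05 times, and the log2 fold change was 0.14 (SE 0.06). TSPYL5, a further family gene with 1 exon, had 0 counts in every sample, for which 3 counts set a limit of 0.0466 to 0.0556 CPM. That limit covers counting error only.

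ZXDA, a zinc finger regulator, was the least abundant measured member per unit of length. It had 413 and 557 counts in KO against 246 and 245 in WT, or 6.91 and 8.43 CPM against 4.13 and 4.6 CPM. The KO samples differed from each other by 0.29 on the log2 scale but both lay above WT, the lower KO value being 1.5 times the higher WT value. The fit gave a log2 fold change of 0.82 (SE 0.13), or 1.76-fold.

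ZXDB had 1309 and 1704 counts in KO against 1068 and 934 in WT, or 21.9 and 25.8 CPM against 17.9 and 17.5 CPM. The WT samples were close together and KO replicate 2 was well above KO replicate 1. The log2 fold change was 0.43 (SE 0.08), or 1.34-fold. Against the WT mean it was 0.30 in KO replicate 1 and 0.54 in KO replicate 2.

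The ZXD pair together had 1722 and 2261 counts in KO and 1314 and 1179 in WT, or 31.5 ± 3.83 CPM against 22.1 ± 0.049 CPM. The log2 fold change of the sum was 0.51 (SE 0.08). ZXDA took 24% of the pair's counts in KO replicate 1 and 24.6% in KO replicate 2, against 18.7% and 20.8% in the WT samples. The share was higher in both KO samples than in both WT samples, yet the 95% Wilson interval of KO replicate 1 (22% to 26.1%) overlapped that of WT replicate 2 (18.6% to 23.2%). These intervals cover counting error only.

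ZXDC, the multi-exon relative that acts with ZXDA and CIITA, had 3564 and 4245 counts in KO against 3665 and 3056 in WT, or 59.6 and 64.2 CPM against 61.6 and 57.4 CPM. KO and WT overlapped, and the log2 fold change was 0.06 (SE 0.06).

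**Figure D1:**
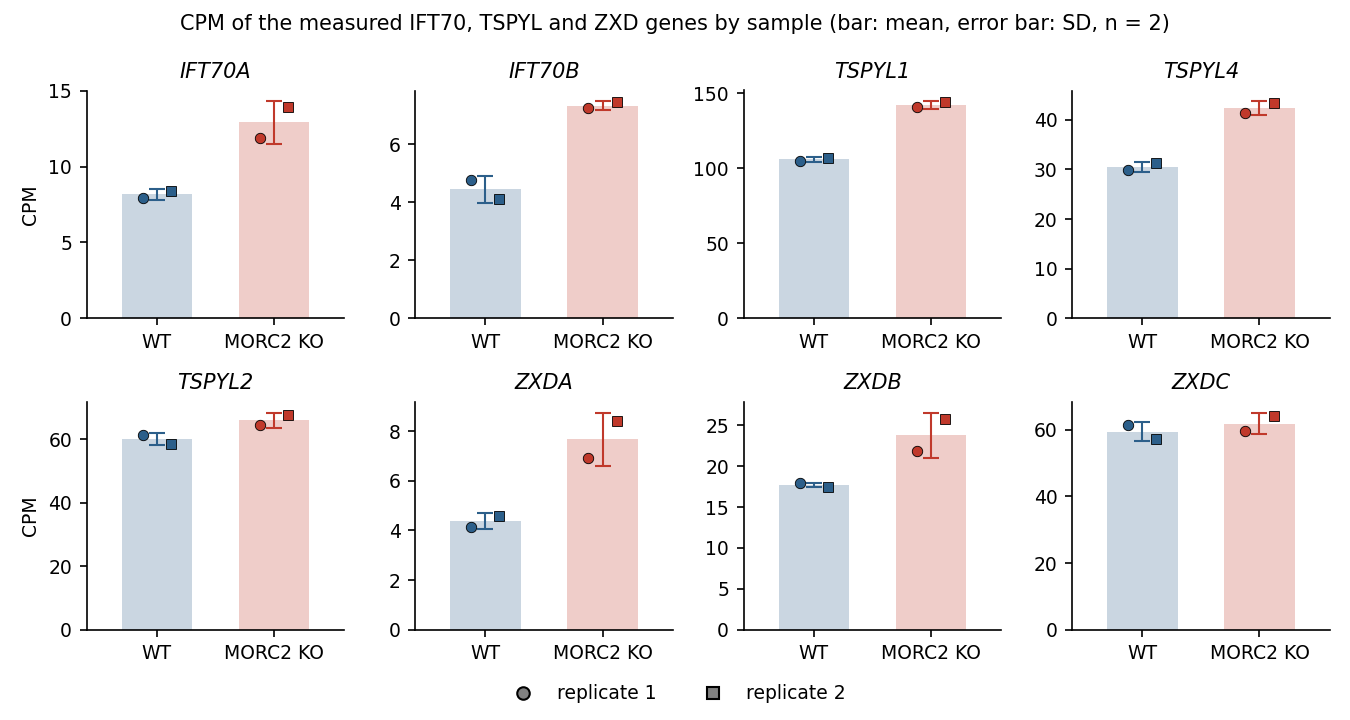
TMM-scaled CPM (linear axes from 0) of the 8 measured genes in WT (blue) and MORC2 KO (red), with circles for replicate 1, squares for replicate 2, bars for the mean and error bars for the SD of 2 samples. In the 6 pair genes both KO samples lie well above both WT samples, from 6.91 to 8.43 CPM against 4.13 to 4.6 CPM for ZXDA, whereas in ZXDC the groups overlap.

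The fit over all 16675 tested genes gave 98 genes higher in KO (0.588%) and 5 lower (0.03%) at an adjusted p under 0.05. All 6 pair genes were among the 98, as the choice of the pairs led them to be, and TSPYL2 and ZXDC were in neither group. Without MORC2 KO replicate 1, the log2 fold change of TSPYL2 was 0.16, against 0.14 with all 4 samples. Whether members were called in fits with 1 sample left out is not given. Both KO samples exceeded both WT samples in 24.1% of all tested genes, and in 7 of the members, namely the 6 pair genes and TSPYL2. KO replicate 2 exceeded KO replicate 1 in all 8 measured members, and in 50.8% of all tested genes. Since the pairs were chosen by these same counts, calls on their genes add no support. Among the fits with all 4 samples, ZXDB was not called with a requirement of at least 10 counts in every sample. Nor was it called with offsets that remove the trend of fold change on abundance. The log2 fold change of ZXDB ran from 0.30 without MORC2 KO replicate 2 to 0.53 without MORC2 KO replicate 1.

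The members spanned a wide range of abundance. Divided by exonic length, the WT levels in CPM per kb were 21.3 ± 0.715 for TSPYL2 and 20.9 ± 0.356 for TSPYL1, which did not differ beyond their spread. They were followed by ZXDC at 10 ± 0.498, TSPYL4 at 7.42 ± 0.255 and ZXDB at 3.25 ± 0.0517 CPM per kb. The lowest were IFT70A at 1.42 ± 0.0618, IFT70B at 1.17 ± 0.122 and ZXDA at 0.868 ± 0.0659 CPM per kb (SD, n = 2 throughout), below which came TSPYL5 with no counts. TSPYL2 was thus higher than 79.1% of tested genes and ZXDA higher than 26.6%, the median of tested genes being 4.75 CPM per kb.

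In the KO samples TSPYL1 had 28.1 ± 0.51 CPM per kb and stood above TSPYL2 at 23.5 ± 0.837, from which it did not differ beyond the spread in WT. TSPYL4 at 10.3 ± 0.34 stood below ZXDC as in WT but did not differ beyond the spread from it, ZXDC being at 10.5 ± 0.554 CPM per kb. ZXDB at 4.36 ± 0.504, IFT70A at 2.24 ± 0.243, IFT70B at 1.93 ± 0.0381 and ZXDA at 1.52 ± 0.214 CPM per kb kept their places. TSPYL1, with a log2 fold change of 0.43, had the largest absolute difference in level of the 8 measured genes.

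**Figure D2:**
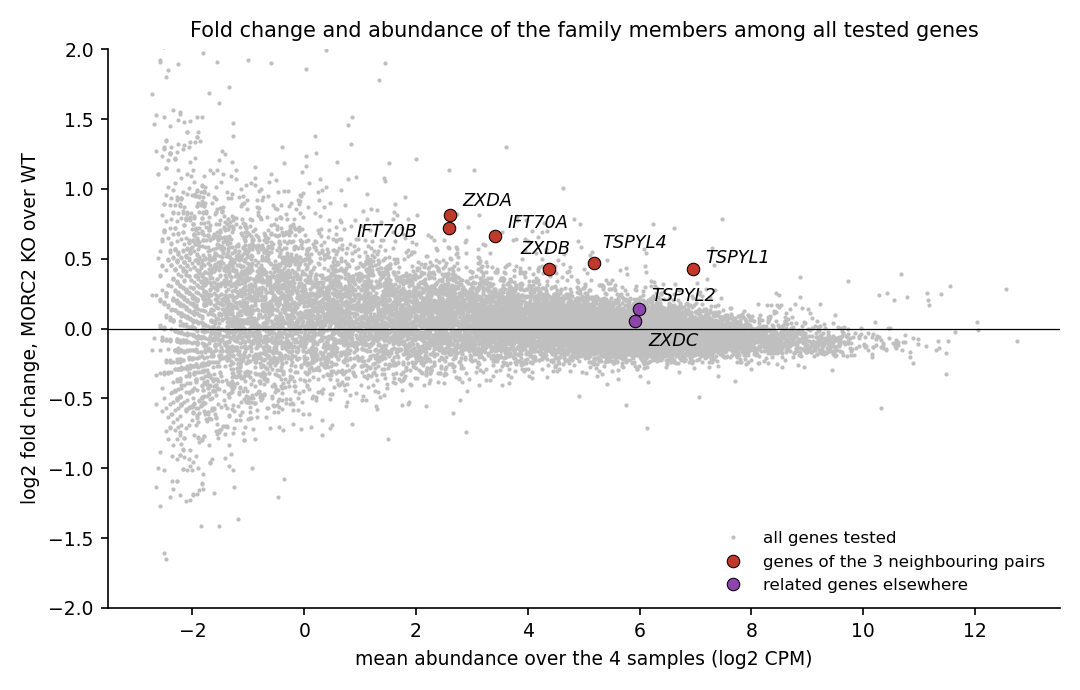
Log2 fold change of MORC2 KO over WT against mean log2 CPM for all 16675 tested genes (grey), the 6 pair genes (red) and TSPYL2 and ZXDC (purple), with 6 genes beyond the limits of 2 on the log2 scale not drawn. The pair genes lie along the upper edge of the cloud between log2 fold changes of 0.43 and 0.82, and TSPYL2 and ZXDC lie within it.

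The fold change of all genes varied with abundance, which moves with the values of the lower members. Among the 2661 tested genes between 2 and 4 on the log2 CPM scale, where IFT70A, IFT70B and ZXDA lie, the median log2 fold change was 0.05 and 64.1% were positive. Among the 4623 genes between 4 and 6, where TSPYL4, TSPYL2, ZXDB and ZXDC lie, the median was -0.00. Among the 3458 genes between 6 and 8, where TSPYL1 lies, it was -0.04 and 32.4% were positive. With the trend removed, the log2 fold changes of the 6 pair genes ran from 0.40 to 0.74, against 0.43 to 0.82 before.

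The genes around the pairs were next compared between KO and WT, to see whether whole neighbourhoods differed. Within 500 kb of a pair lay 31 other genes, of which 18 were tested. None passed the test in either direction (edgeR, smallest adjusted p = 0.26), 1 was higher and 0 lower at an unadjusted p under 0.05, and DESeq2 called none. Over all tested genes 0.588% were called higher, and 8.14% were higher at an unadjusted p under 0.05, against 5.56% of the 18. So few genes can hold no call without differing from all genes. The median log2 fold change of the 18 was 0.02, close to the 0.01 of all tested genes, and their values ran from -0.55 to 0.64.

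Around IFT70, AGPS, an enzyme of ether lipid synthesis whose gene ends 5164 bp from IFT70B, had 8821 and 9630 counts in KO against 8591 and 7654 in WT, with a log2 fold change of 0.03 (SE 0.06, adjusted p = 0.872). On the other side, PDE11A, a cyclic nucleotide phosphodiesterase 4501 bp from IFT70A, had 146 and 165 counts against 162 and 121, with a log2 fold change of -0.02 (SE 0.17, adjusted p = 0.972). The 2 neighbours with the smallest p were LOC100130691, a long non-coding RNA with 88 and 133 counts in KO against 71 and 56 in WT (log2 fold change 0.64, SE 0.23, adjusted p = 0.26), and HNRNPA3, an RNA-binding protein gene (log2 fold change -0.14, SE 0.07, adjusted p = 0.358). Both lie on the IFT70B side, at 156 and 325 kb.

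Around TSPYL, NT5DC1, which encodes a protein with a nucleotidase domain, lies 468 bp from TSPYL4 and had 4672 and 4889 counts in KO against 4559 and 4324 in WT (log2 fold change -0.05, SE 0.06, adjusted p = 0.71). DSE, the dermatan sulfate epimerase gene that encloses TSPYL1, had 3545 and 3838 counts against 3370 and 3086, with a log2 fold change of 0.03 (SE 0.06, adjusted p = 0.818). On the assembly used for counting, DSE starts at chr6:117438152 on the plus strand. It thus begins just beyond the start of TSPYL4, which lies at 117438056 on the minus strand. The host gene thus stood at 0.03 and the gene inside it, TSPYL1, at 0.43. LOC100287467, a long non-coding RNA 87.5 kb beyond TSPYL1, had 34 and 82 counts in KO against 46 and 34 in WT, with a log2 fold change of 0.37 (SE 0.35) that its KO replicates did not share.

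Around ZXD few genes were expressed. FAAH2, a fatty acid amide hydrolase gene 103 kb from ZXDB, had 11 and 8 counts in KO against 13 and 12 in WT (log2 fold change -0.55, SE 0.50, adjusted p = 0.633), an SE larger than the log2 difference seen in ZXDB. No gene on the far side of ZXDA was tested within 1000 kb.

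**Figure D3:**
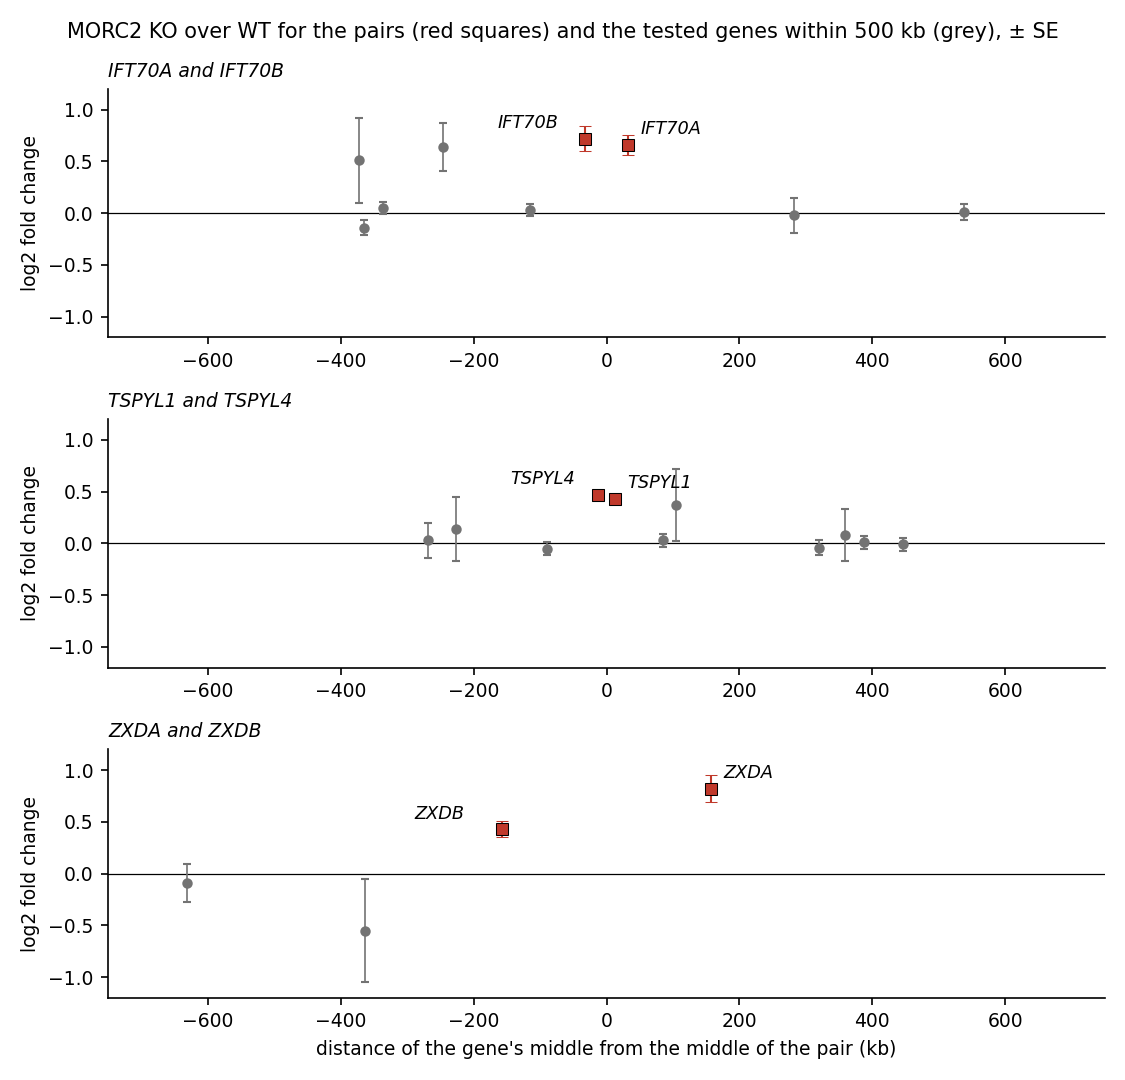
Log2 fold change (± SE) of the pair genes (red squares) and of every tested gene within 500 kb of a pair (grey circles), against the distance in kb of the gene's middle from the middle of the pair. The pair genes stand between 0.43 and 0.82, while the tested neighbours lie between -0.55 and 0.64, with AGPS, NT5DC1 and DSE between -0.05 and 0.03 and HNRNPA3, with more counts than these, at -0.14.

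The pathways in which these proteins act were examined next. Of 29 other intraflagellar transport genes, all 29 were tested and none was called. Their median log2 fold change was 0.02, with a range of -0.19 to 0.39, against 0.01 over all genes. There was 1 higher and 1 lower at an unadjusted p under 0.05, and DESeq2 called none. Over all 16675 tested genes 1358 were higher and 1029 lower at that level, and 0.588% were called higher. Lists as short as this and the next ones can thus hold no called gene without differing from all genes. The smallest p values in the list belonged to IFT140, a subunit of the A complex (log2 fold change 0.20, SE 0.07, adjusted p = 0.273), and IFT25, a subunit of the B complex like IFT70 (-0.19, SE 0.07, adjusted p = 0.288).

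Of 8 other genes of the nucleosome assembly protein family, 6 were tested and none was called (edgeR, smallest adjusted p = 0.41, and 0 at an unadjusted p under 0.05), nor by DESeq2. The median log2 fold change was -0.04, with a range of -0.12 to 0.11. NAP1L3 had a log2 fold change of 0.11 (SE 0.06, adjusted p = 0.41) and SET, an abundant histone chaperone, one of -0.12 (SE 0.07, adjusted p = 0.45). TSPYL6 and NAP1L5, further family genes, had at most 3 counts in any sample and were not tested.

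Of 17 genes of MHC class II transcription and presentation, 16 were tested and none was called by edgeR (smallest adjusted p = 0.229) or DESeq2. At an unadjusted p under 0.05, 1029 of all 16675 tested genes were lower, and in this list 2 genes were lower. These were HLA-DRA, with 13 and 18 counts in KO against 30 and 31 in WT (log2 fold change -1.13, SE 0.37, adjusted p = 0.229), and HLA-DRB1, with 99 and 117 against 128 and 128 (-0.41, SE 0.18, adjusted p = 0.333). CIITA, through which ZXD proteins are known to act, was low in all samples, with 119 and 152 counts in KO against 121 and 115 in WT (log2 fold change 0.04, SE 0.18, adjusted p = 0.946). The median of the list was -0.03.

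Other single-exon genes with a single-exon neighbour were counted for comparison, whether or not the neighbours were paralogs. Besides the pair genes, 124 tested protein-coding genes with 1 exon had another such gene within 500 kb. Among them 3 were called higher (2.42%) and 0 lower, with a median log2 fold change of 0.08, and 75 of 124 were positive (60.5%). Of the 220 single-exon genes without such a neighbour, 6 were called higher (2.73%) and 0 lower, with a median of 0.05, and 64.1% were positive. The share called higher over all tested genes was 0.588%, their median 0.01, and 51.5% were positive. At an unadjusted p under 0.05, 18.5% of the 124, 18.6% of the 220 and 8.14% of all tested genes were higher. The 3 called were TAF7, a subunit of the transcription factor TFIID, with 11396 and 11916 counts in KO against 7988 and 7263 in WT (log2 fold change 0.45, SE 0.06, adjusted p = 0.00248), GSPT2, a translation termination factor (0.64, SE 0.08), and RTL8B, a gene derived from a retrotransposon (0.59, SE 0.07). The 124 include histone, protocadherin and mitochondrial genes, so they are not a uniform group. The difference between genes with and without a neighbour was not tested.

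Across the 4 samples, the 6 pair genes had a mean profile of log2 CPM, centred on each gene's own mean, of 0.22 and 0.36 in KO replicates 1 and 2 and -0.30 and -0.28 in WT replicates 1 and 2. The 5 genes with the smallest Euclidean distance from it were AMY2B at 0.00984, CRB3 at 0.0205, NEMP2 at 0.0233, TIGD2 at 0.0441 and LINC02908 at 0.0501. The pair genes themselves lay between 0.1 (IFT70A) and 0.26 (ZXDA) from their own mean. With 4 samples many genes can lie this close, and 3 of the 5, AMY2B, CRB3 and LINC02908, had at most 130 counts in any sample and were not called. AMY2B, an amylase, also has near-identical paralogs, which makes its counts uncertain. NEMP2, a nuclear envelope protein gene, and TIGD2, which derives from a transposase, were called (log2 fold change 0.57, SE 0.10, adjusted p = 0.0257, and 0.54, SE 0.08, adjusted p = 0.00559).

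**Figure D4:**
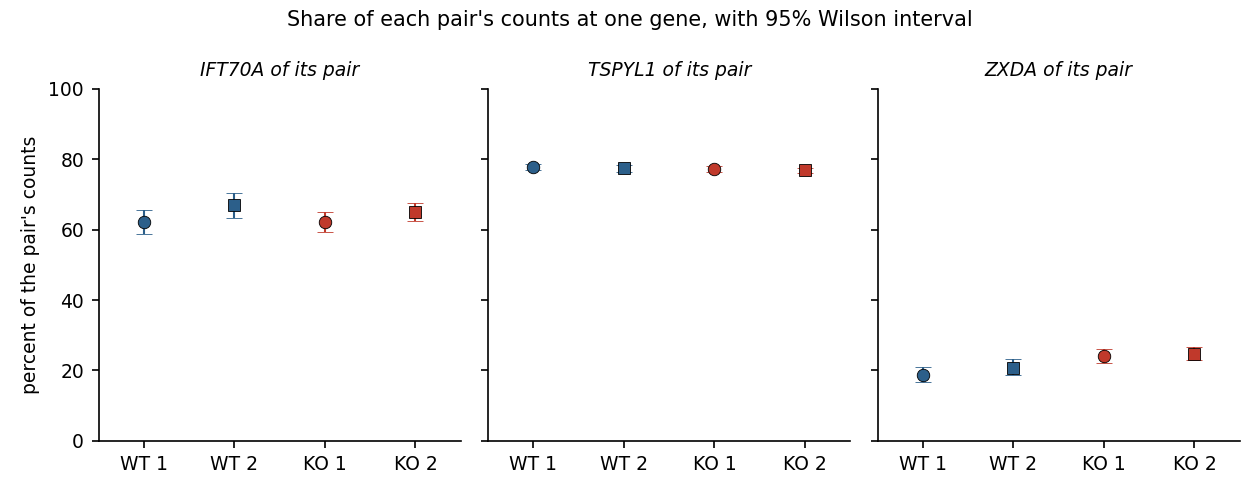
Percent of each pair's counts found at IFT70A, TSPYL1 and ZXDA (y axis, 0 to 100%) in each of the 4 samples, with 95% Wilson intervals for counting error. TSPYL1 stays between 76.9% and 77.8%, IFT70A overlaps between WT and KO, and ZXDA lies at 18.7% and 20.8% in WT and at 24% and 24.6% in KO.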

How the data were processed

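Per the labels, reads were aligned with Subread 2.0.6 to T2T-CHM13v2.0. The authors deposited raw counts of read pairs per gene from featureCounts on strict RefSeq annotation, per the file headers with multi-mapping reads counted and strand ignored. Entrez identifiers were matched to symbols with a RefSeq GRCh38.p14 table (28763 of 28775). From these counts, genes were filtered with filterByExpr, scaled by TMM (factors 0.986 to 1.03) and tested with edgeR 4.0.16 quasi-likelihood F-tests in R 4.3.3, in the form of the older version the authors used, with Benjamini-Hochberg adjusted p-values called at 0.05. Biological variation came to 5.33%, as edgeR's common coefficient. Standard errors are the absolute log2 fold change over the square root of F. With 2 samples against 2, an exact two-sided permutation test cannot go below p = 0.333. Replicates differed by more than counting noise, with a chi-square per degree of freedom of 16.8 between KO and 6.56 between WT samples over genes with at least 20 counts. The methods call the WT cultures and the KO lines independent.

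The members and lists were chosen with earlier results of these data known. Genes named beside the members were those called in a list (at most 5) or, where none was, the 2 with the smallest p, the nearest tested gene on each side of a pair, and the 5 most like the pairs in profile. CIITA, the overlapping DSE and the untested family genes were named in addition. Shared words and coding identity came from the longest coding transcripts of GENCODE 29, and promoters from RefSeq, aligned with Biopython 1.88. No coordinates were converted between builds. The fits were tested on simulated counts. Alternatives were other scaling and filters, the newer edgeR form, DESeq2 1.42.0, loess offsets (span 0.3), the replicate number as a block, and leaving out each sample.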

Additional observations from a re-analysis of the deposited data

How the results depend on the processing

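The median log2 fold change of the 6 pair genes was 0.57 and stayed between 0.49 and 0.62 in all 13 alternatives, and no result changed direction. Over all genes, the numbers higher and lower were 463 and 182 without a filter on low counts and 191 and 110 with offsets on GC content and length. DESeq2 called 17 lower and offsets on abundance 8 lower. Leaving out 1 sample gave from 88 to 1397 higher and from 9 to 2117 lower, the highest without MORC2 KO replicate 1 (1397 and 2117). In these fits the lone sample of an arm is assumed to vary like the others. When 1 sample was left out, the log2 fold changes of the 6 pair genes ran from 0.30 to 0.94. Without WT replicate 2, it was 0.62 for IFT70B and 0.41 for ZXDB, against 0.72 and 0.43 with all 4 samples. Calls on the members in fits with 1 sample left out are not given. Among the fits with all 4 samples, ZXDB was not called with at least 10 counts required or with abundance offsets. Other calls on the pair genes follow from their choice and add no support.

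The log2 fold change of the summed pairs ran from 0.60 to 0.74 (IFT70), 0.41 to 0.46 (TSPYL) and 0.38 to 0.62 (ZXD) when 1 sample was left out. For TSPYL it was 0.48 with library size alone, 0.49 with abundance offsets and 0.39 with offsets on GC content and length. Genes called without MORC2 KO replicate 1 were 1 higher and 2 lower in the intraflagellar transport list, 2 lower in the nucleosome assembly list, 1 lower in the MHC class II list, and 1 higher and 2 lower within 500 kb of a pair, where the other single-sample omissions gave 0. For single-exon genes with a neighbour, leaving out 1 sample gave from 3 to 25 higher and from 1 to 9 lower, no filter gave 12 and 4, and offsets on GC content and length gave 3 lower. The cause of these changes was not tested.

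With words of 40 and 100 bases in place of 65, the share of IFT70A found in IFT70B was 12.6% and 5.62%, of IFT70B in IFT70A 18.8% and 8.42%, of ZXDA in ZXDB 36.1% and 19.8%, and of ZXDB in ZXDA 25.1% and 13.7%.

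Samples of KO and WT share replicate numbers only, and the deviations of same-numbered samples correlated at -0.124. With the replicate number as a block, 237 genes were higher and 42 lower, and 5 single-exon genes with a neighbour were higher and 3 lower. The log2 fold changes of the 6 pair genes then ran from 0.42 to 0.81. With the numbers crossed, a choice made after seeing the data, 903 genes were higher and 809 lower.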
